A study of Mus musculus with 13 samples.

Results

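The expression of 10 checkpoint genes was described in mammary tumours of mice that had lost Fbxw7 and in wild-type mammary glands. The genes were Trp53, its ubiquitin ligase partners Mdm2 and Mdm4, the p53 target genes Cdkn1a, Ccng1, Zmat3, Pmaip1 and Gdf15, and the neighbouring inhibitor genes Cdkn2a and Cdkn2b. They were taken by symbol from a count table of 38279 symbols, and all 10 were present and passed the filter on low counts, which kept 20101 genes. Fbxw7, also called Fbw7, is the substrate receptor of an SCF ubiquitin ligase that targets cyclin E, c-Myc and other growth regulators for degradation, and the series concerns tumours that arise after its loss and their Trp53 status. The 6 tumours came from Cre-positive mice, taken at 25, 32, 39, 19, 53 and 25 weeks of age for tumours 1 to 6. The 4 whole mammary glands were wild type and came from Cre-negative mice, at 20 weeks for glands 1 to 3 and 40 weeks for gland 4. Mice of both kinds were mated at 12 weeks of age, which induced the excision where Cre was present. The promoter that drives Cre is not named in the labels, and the Trp53 sequence of each tumour was not analysed here.

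The p53 protein, made from Trp53, is a transcription factor that is held low by Mdm2, the ligase that marks it for degradation, and by Mdm4, which binds and blocks it. DNA damage and oncogene signals stabilise p53, and it then raises genes that stop the cell cycle, drive apoptosis or feed back on p53 itself, Mdm2 among them. Cdkn2a encodes, from separate first exons, the Arf protein, which restrains Mdm2, and the Ink4a protein, which inhibits the cyclin D kinases Cdk4 and Cdk6. Because p53 is controlled largely at the level of protein, the RNA levels of its targets are commonly read as its output.

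Library totals were 34865913 to 48325044 counts in the tumours and 13723065 to 48353114 counts in the glands. Levels are given as CPM, a count scaled to library size, after TMM, which corrects for RNA composition. Fbxw7 itself, counted over the whole gene, had 33.3, 47.3, 15.1, 27.8, 28.6 and 33.1 CPM in tumours 1 to 6, against 14.3, 17.8, 18.4 and 83.6 CPM in glands 1 to 4. Every tumour thus lay in the gland range for Fbxw7, and gland 4 alone set the top of that range. A whole-gene count does not show whether an excised part is missing, so it checks no label. Some features of the libraries touch the results. Markers of salivary gland, 14 genes, took 51.6% of all counts in tumour 1 and 19.3% in tumour 6, against at most 0.0391% in the other tumours and 0.0528% in the glands. In gland 4, skeletal muscle markers took 8.37% of counts and mitochondrial transcripts took 37.5%, and this gland was also 40 weeks old. Muscle markers also took 1.65% of counts in gland 1 and 0.779% in gland 2. They took 0.00485% in gland 3 and at most 0.104% in a tumour. Luminal epithelial markers summed to 1995 to 4380 CPM in the tumours and 450 to 765 CPM in the glands, while adipocyte markers summed to 17.7 to 1355 CPM in the tumours and 7743 to 29913 CPM in the glands. Lymphocyte markers differed among the glands: those of T and NK cells summed to 24.2, 749, 592 and 3.18 CPM and those of B cells to 12.8, 384, 396 and 2.23 CPM in glands 1 to 4. In tumours these sums were highest in tumour 5, at 116 CPM for T and NK cells against 5.67 to 19.6 CPM in the other tumours, and at 67.6 CPM for B cells against 4.73 to 15.1 CPM. In whole tissue, fewer cells of a type and less RNA per cell cannot be told apart, and the part of cell make-up in the differences below was not tested.

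Across tumours and glands, 1 of the 10 genes rose, Cdkn2a, and 1 fell, Ccng1, at an adjusted p below 0.05 in edgeR's quasi-likelihood test. Over all 20101 genes tested, 6.89% rose and 8.19% fell. Cdkn2a was also the 1 member whose 6 tumours all lay above every gland in TMM-scaled CPM, which 6.54% of all genes did. No member had all tumours below every gland, which 7.5% of all genes did. The median log2 fold change was 0.80 over the 10 members and 0.17 over all genes tested. The more visible feature of these genes was the spread among tumours: the highest tumour exceeded the lowest 118-fold for Pmaip1, 44.5-fold for Cdkn2a and 20.8-fold for Cdkn1a, but 2.34-fold for Mdm4.

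**Figure D1:**
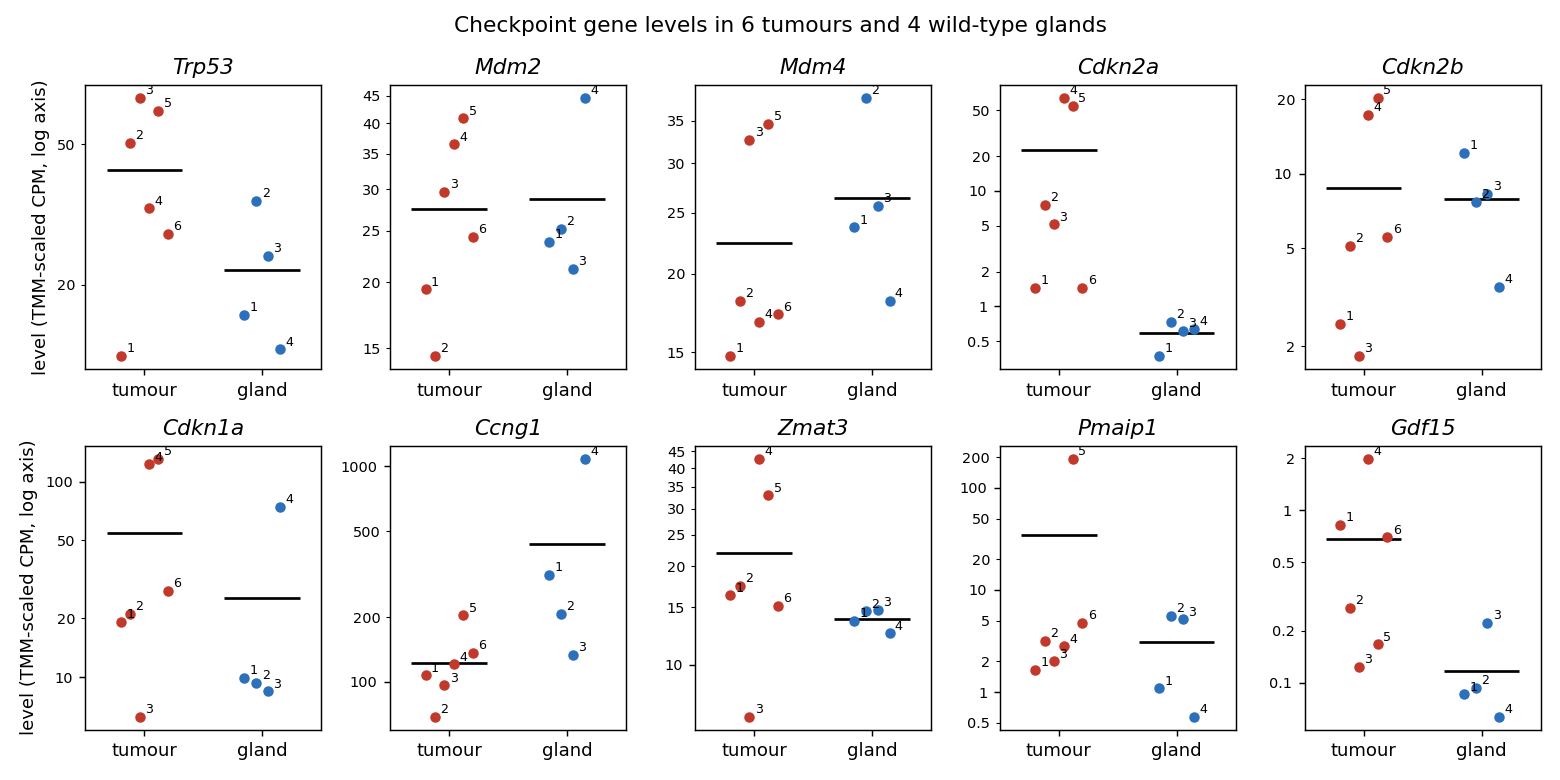
Level of each checkpoint gene in TMM-scaled CPM on a log axis, with 6 tumours in red and 4 wild-type glands in blue; each point is a library with its number, and bars are arithmetic means. Tumours 4 and 5 have the highest Cdkn2a, Cdkn2b, Cdkn1a and Zmat3, while tumour 3 has the lowest Cdkn1a, Zmat3 and Gdf15.

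Trp53 RNA was measured at 12.5, 50.5, 67.8, 32.9, 62.3 and 27.9 CPM in tumours 1 to 6, against 16.4, 34.6, 24.1 and 13.1 CPM in glands 1 to 4. Tumours 2, 3 and 5 lay above every gland, tumour 1 lay below every gland, and the other tumours lay among the glands. Glands 2 and 3, with the most lymphocyte markers, had the highest Trp53 of the glands, and the part of those cells was not tested. The mean was 42.3 ± 21.4 CPM in tumours (SD, n = 6) and 22.0 ± 9.53 CPM in glands (SD, n = 4). The log2 fold change of 0.94 ± 0.47 (SE) did not pass the edgeR test, with an adjusted p of 0.181 and a 95% interval of -0.08 to 1.96. Without the tumours with salivary transcripts, tumours 1 and 6, it was 1.25 and its edgeR adjusted p was 0.0455. Of 21 fits, the main fit included, this was the 1 in which Trp53 passed. Without gland 4 the log2 fold change was 0.71 with an edgeR adjusted p of 0.361. Trp53 overlaps Wrap53, which is read from the opposite strand, and the sources used here do not say whether counting used strand. Wrap53 had 3.50 to 9.87 CPM in tumours and 4.96 to 7.88 CPM in glands.

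Mdm2 and Mdm4 varied least among the tumours. Mdm2 had 19.4, 14.5, 29.6, 36.5, 40.8 and 24.3 CPM in tumours 1 to 6, against 23.8, 25.2, 21.2 and 44.6 CPM in glands 1 to 4. Tumours 1 and 2 lay below every gland, and the other 4 tumours lay in the gland range. Gland 4 alone set the top of that range, and tumours 3, 4 and 5 had more Mdm2 than glands 1 to 3. Its log2 fold change was -0.06 ± 0.34 (SE), with a 95% interval of -0.82 to 0.69 and an edgeR adjusted p of 0.914. Its sign turned under several alternatives, so no direction is given for Mdm2. Mdm4 ranged from 14.8 to 34.6 CPM in tumours and from 18.1 to 38.1 CPM in glands, with the highest tumour values in tumours 3 and 5. Its log2 fold change of -0.24 ± 0.33 (SE) had an edgeR adjusted p of 0.633.

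Cdkn2a and Cdkn2b lie side by side on mouse chromosome 4. The windows of 250 bases before their RefSeq starts are shown because the 2 Cdkn2a starts belong to different proteins, which the count per gene symbol cannot separate. The first window lies before the Arf start at chr4:89294620-89294869, the second before the Ink4a start at chr4:89282193-89282442 and the third before Cdkn2b at chr4:89311033-89311282, all on the minus strand of GRCm38.p6, from RefSeq, and capitals mark an E2F word.
Cdkn2a Arf start: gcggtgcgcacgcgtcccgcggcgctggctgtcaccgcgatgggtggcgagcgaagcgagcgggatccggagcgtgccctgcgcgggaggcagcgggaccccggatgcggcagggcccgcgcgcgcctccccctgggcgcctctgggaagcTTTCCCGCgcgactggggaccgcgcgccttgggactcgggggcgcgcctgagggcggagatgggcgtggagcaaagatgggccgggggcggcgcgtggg
Cdkn2a Ink4a start: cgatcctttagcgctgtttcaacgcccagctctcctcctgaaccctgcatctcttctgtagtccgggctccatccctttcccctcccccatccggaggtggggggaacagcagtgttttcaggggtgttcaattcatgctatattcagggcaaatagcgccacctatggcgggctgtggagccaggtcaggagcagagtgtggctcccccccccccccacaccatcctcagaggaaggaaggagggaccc
Cdkn2b: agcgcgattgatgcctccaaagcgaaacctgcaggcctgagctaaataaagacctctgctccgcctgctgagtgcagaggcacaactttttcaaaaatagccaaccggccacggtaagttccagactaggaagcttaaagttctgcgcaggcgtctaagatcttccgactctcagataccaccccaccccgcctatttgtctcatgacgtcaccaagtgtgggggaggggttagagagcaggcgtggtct
The words TTTCGCGC, TTTGGCGC and TTTCCCGC were searched on both strands, and a word was found in the Arf window alone among 12 windows of 8 members. The same words were found in 1.53% of 32851 promoter windows of this length. A match is a description of letters and not a bound site.

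In TMM-scaled CPM, Cdkn2a was higher in every tumour than in any gland. It had 1.44, 7.61, 5.14, 64.1, 54.9 and 1.45 CPM in tumours 1 to 6, against 0.371, 0.734, 0.613 and 0.636 CPM in glands 1 to 4. The levels in tumours 4 and 5 stood far above the rest, at 103 and 87.9 times the gland median, and tumours 1 and 6, the tumours with salivary transcripts, were the lowest tumours. Counts were low in tumours 1 and 6, at 21 and 52, and in glands 1 to 4, at 13, 47, 11 and 10. Scaled by library total alone, tumour 1 would lie in the gland range. Its place above every gland thus rests on its TMM factor of 0.422. The mean of Cdkn2a was 22.4 ± 28.9 CPM in tumours (SD, n = 6) and 0.588 ± 0.154 CPM in glands (SD, n = 4). Its log2 fold change was 5.25 ± 1.29 (SE), with a 95% interval of 2.42 to 8.08 and an edgeR adjusted p of 0.0234. The call was lost when any 1 gland was left out, with edgeR adjusted p from 0.0542 to 0.0772, while the log2 fold change stayed between 4.59 and 5.49 whichever library was left out. Whether Arf, Ink4a or both transcripts make up the tumour level cannot be read from these counts.

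Cdkn2b, which encodes the related cyclin D kinase inhibitor Ink4b, had 2.47, 5.11, 1.83, 17.3, 20.3 and 5.55 CPM in tumours 1 to 6, against 12.1, 7.71, 8.30 and 3.50 CPM in glands 1 to 4. Tumours 4 and 5 were above every gland and tumours 1 and 3 below every gland. The log2 fold change of 0.15 ± 0.68 (SE) had an edgeR adjusted p of 0.893, and its direction depended on the libraries and the tool. Mtap, the gene on the other side of Cdkn2a, had 18.2, 25.9, 67.4, 28.7, 27.1 and 24.7 CPM in tumours 1 to 6, against 29.2 to 38.5 CPM in glands. Tumour 3 had the highest Mtap, and the other 5 tumours lay below every gland. All 3 neighbours were detected in every tumour.

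The p53 target members were Cdkn1a, Ccng1, Zmat3, Pmaip1, Gdf15 and Mdm2. RefSeq windows of 250 bases before the start are shown for Cdkn1a (chr17:29090729-29090978, plus strand), Mdm2 (chr10:117710759-117711008, minus strand), Ccng1 (chr11:40755287-40755536, minus strand) and Trp53 (chr11:69580109-69580358, plus strand), in GRCm38.p6. They are shown because they are the member windows that hold the p53 decamer half-site, which capitals mark.
Cdkn1a: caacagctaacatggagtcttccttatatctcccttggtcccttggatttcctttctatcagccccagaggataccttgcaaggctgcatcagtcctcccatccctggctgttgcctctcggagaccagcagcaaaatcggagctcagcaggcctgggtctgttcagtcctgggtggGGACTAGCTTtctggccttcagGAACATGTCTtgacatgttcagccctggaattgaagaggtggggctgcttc
Mdm2: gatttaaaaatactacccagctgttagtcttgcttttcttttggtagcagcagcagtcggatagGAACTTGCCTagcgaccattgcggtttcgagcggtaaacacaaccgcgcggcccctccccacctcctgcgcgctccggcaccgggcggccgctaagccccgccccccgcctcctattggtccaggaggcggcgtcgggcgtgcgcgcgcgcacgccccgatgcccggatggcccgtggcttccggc
Ccng1: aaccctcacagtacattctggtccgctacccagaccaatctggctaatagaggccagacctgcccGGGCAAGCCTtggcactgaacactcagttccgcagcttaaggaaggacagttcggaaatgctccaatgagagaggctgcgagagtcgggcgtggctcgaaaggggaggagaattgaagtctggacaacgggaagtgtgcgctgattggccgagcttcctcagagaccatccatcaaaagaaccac
Trp53: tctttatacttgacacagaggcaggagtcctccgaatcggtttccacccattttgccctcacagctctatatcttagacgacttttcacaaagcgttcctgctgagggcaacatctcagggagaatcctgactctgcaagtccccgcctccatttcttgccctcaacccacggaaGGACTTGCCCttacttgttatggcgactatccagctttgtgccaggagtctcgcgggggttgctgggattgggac
The decamer half-site was searched on both strands. It was found in 4 of 12 member windows, and 7.13% of all 32851 windows hold it. Cdkn1a has another RefSeq start, whose window held no match. Pmaip1 and Zmat3 are named only. The matches start at base -73 and base -51 from the Cdkn1a start, at -186 for Mdm2, at -185 for Ccng1 and at -75 for Trp53.

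Cdkn1a encodes p21, the inhibitor of cyclin-dependent kinases through which p53 arrests the cell cycle. It had 19.2, 21.1, 6.28, 123, 131 and 27.6 CPM in tumours 1 to 6, against 9.93, 9.38, 8.46 and 74.2 CPM in glands 1 to 4. Tumours 4 and 5 lay above every gland, tumour 3 lay below every gland, and tumours 1, 2 and 6 lay above glands 1 to 3 but below gland 4. The highest tumours, 4 and 5, were at 12.7 and 13.6 times the gland median and at 1.65 and 1.76 times gland 4. The log2 fold change of 1.10 ± 0.94 (SE) had an edgeR adjusted p of 0.419 and a 95% interval of -0.95 to 3.16. Without gland 4, the gland with the most muscle and mitochondrial transcripts, it was 2.52 with an edgeR adjusted p of 0.101.

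Zmat3, which encodes an RNA-binding protein that p53 induces, varied least among the glands. It had 16.3, 17.4, 6.93, 42.7, 33.0 and 15.1 CPM in tumours 1 to 6, against 13.6, 14.6, 14.7 and 12.5 CPM in glands 1 to 4. Tumours 1, 2, 4, 5 and 6 lay above every gland, though tumours 1, 2 and 6 by only 1.11, 1.19 and 1.03 times the highest gland, and tumour 3 lay below every gland at 0.492 times the gland median. The same tumours as for Cdkn1a, 4 and 5, led at 2.91 and 2.24 times the highest gland. Scaled by library total alone, Zmat3 in tumour 1 would lie below every gland, so its place rests on the TMM factor of 0.422. The mean was 21.9 ± 13.3 CPM in tumours (SD, n = 6) and 13.8 ± 1.04 CPM in glands (SD, n = 4). The log2 fold change of 0.66 ± 0.44 (SE) had an edgeR adjusted p of 0.306.

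Ccng1 encodes cyclin G1, a p53 target that acts with Mdm2 in feedback on p53. It had 107, 68.9, 96.3, 121, 204 and 136 CPM in tumours 1 to 6, against 315, 208, 133 and 1087 CPM in glands 1 to 4. Tumours 1 to 4 lay below every gland, and tumours 5 and 6 lay between gland 3 and gland 2. Tumours over glands, the log2 fold change was -1.83 ± 0.55 (SE), with a 95% interval of -3.03 to -0.63 and an edgeR adjusted p of 0.0446. Gland 4, the highest gland, moved this value most: without it the log2 fold change was -0.90 with an edgeR adjusted p of 0.139. Skeletal muscle markers summed to 15295, 5877, 37.1 and 144496 CPM in glands 1 to 4. The glands thus had the same order for Ccng1 as for muscle markers, and the part of muscle was not tested. The call was lost in 8 of the 10 analyses that left out 1 library, and held only without tumour 5 or gland 3.

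Pmaip1 encodes Noxa, a pro-apoptotic Bcl2 family protein. It had 1.64, 3.18, 2.0, 2.81, 194 and 4.80 CPM in tumours 1 to 6, against 1.08, 5.59, 5.18 and 0.572 CPM in glands 1 to 4. Tumour 5 stood alone, at 34.7 times the highest gland and 69.0 times the median of the other tumours, and the other 5 tumours lay inside the gland range. The top of that range was set by glands 2 and 3, with the most lymphocyte markers. Among better-counted neighbouring genes, Lman1, Chmp1b, Mppe1 and Impa2 in tumour 5 were 0.655, 1.78, 1.44 and 0.651 times the median of the other tumours. Gnal and Ccbe1, at 0.653 and 2.44 times it, had at most 35 and 160 counts in a library. Ccbe1 was also lower in tumour 5, at 1.69 CPM, than in tumours 1 and 6, at 10.2 and 4.46 CPM. Over all tumours the Pmaip1 log2 fold change of 3.47 ± 1.63 (SE) had an edgeR adjusted p of 0.160, and without tumour 5 it was -0.10.

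Gdf15 encodes a secreted stress cytokine of the TGF-beta superfamily that p53 and Atf4 can both induce. It was close to the limit of detection: it had 12, 18, 5, 115, 9 and 25 counts in tumours 1 to 6, against 3, 6, 4 and 1 counts in glands 1 to 4. In scaled units these were 0.822, 0.272, 0.124, 1.99, 0.167 and 0.697 CPM in tumours, against 0.0856, 0.0937, 0.223 and 0.0636 CPM in glands. Tumours 1, 2, 4 and 6 lay above every gland, and tumours 3 and 5 lay in the gland range. Its log2 fold change of 2.55 ± 0.90 (SE) had an edgeR adjusted p of 0.0764. By DESeq2 its adjusted p was 0.0233, so the call depended on the tool.

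**Figure D2:**
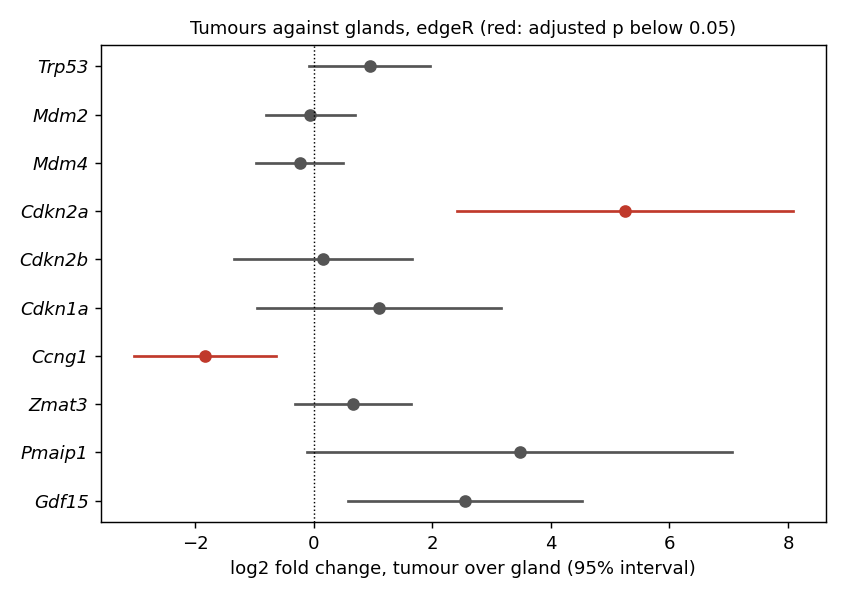
Log2 fold change of each checkpoint gene, tumour over gland, from edgeR, with bars for the 95% interval. The intervals of Cdkn2a and Gdf15 lie above 0 and that of Ccng1 lies below 0; after adjustment over all genes, Cdkn2a and Ccng1 passed the threshold.

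Read tumour by tumour, the high target members were in part shared and in part not. Zmat3 lay above every gland in 5 tumours, though in tumours 1, 2 and 6 by at most 1.19 times the highest gland. Pmaip1 lay above every gland in tumour 5 alone. Each tumour is a single library, so what follows is a description with no test. In tumour 3, 0 of the 6 target members lay above every gland and 3 lay below every gland, namely Cdkn1a, Zmat3 and Ccng1. Over all genes, 33.3% lay above every gland in that tumour and 32.1% lay below. Tumour 3 had the highest Trp53 of all libraries, 67.8 CPM, and Cdkn2a at 5.14 CPM.

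In tumour 4, 3 of the 6 target members lay above every gland, Cdkn1a, Zmat3 and Gdf15, and 1 lay below, Ccng1. In tumour 5, 3 lay above, Cdkn1a, Zmat3 and Pmaip1, and 0 below. Tumour 5 also had the highest level of all 12 T and NK cell markers and of 7 of 8 B cell markers among the tumours. It was the highest tumour for 11.8% of all genes. Its basal epithelial markers summed to 4447 CPM, against 116 to 1289 CPM in the other tumours and 174 to 257 CPM in the glands. That sum was mostly the keratins Krt14, Krt5 and Krt17, at 1857, 1222 and 1181 CPM. Of the 9 basal markers, 5 lay above every gland and 4 below, so the list did not move as a whole. The part of cell make-up in the target levels of tumour 5 was not tested. The share of all genes above every gland was 34.3% in tumour 4 and 30.9% in tumour 5, and the share below was 30.5% in tumour 4 and 26% in tumour 5. Tumour 4 was the youngest at 19 weeks and tumour 5 the oldest at 53 weeks. Trp53 RNA was at 32.9 CPM in tumour 4, within the gland range, and at 62.3 CPM in tumour 5, above it.

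Tumours 1 and 2 each had 2 target members above every gland, Zmat3 and Gdf15, and 2 below, Mdm2 and Ccng1. The shares of all genes were 33.2% above and 30.5% below in tumour 1, and 33.8% above and 28.6% below in tumour 2. Tumour 6 had 2 above, also Zmat3 and Gdf15, and 0 below, with 26.3% and 22.4% of all genes above and below. Against glands 1 to 3 alone, Cdkn1a also lay above in tumours 1, 2 and 6, and Mdm2 in tumours 3, 4 and 5. The numbers above became 3, 3, 1, 4, 4 and 3 in tumours 1 to 6. In that comparison the shares of all genes were 39%, 41.8%, 40.3%, 42.2%, 40% and 35.1%.

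**Figure D3:**
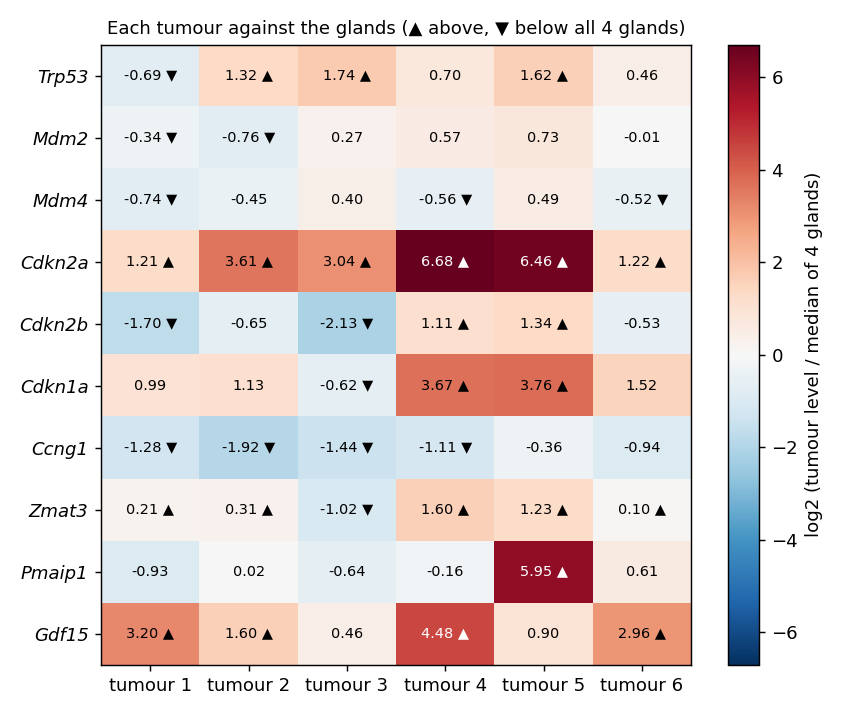
Log2 ratio of each checkpoint gene in each tumour to the median of the 4 glands, as colour and number, with triangles where the tumour lay above or below all 4 glands. Tumours 4 and 5 are high for Cdkn2a, Cdkn1a and Zmat3, tumour 5 alone is high for Pmaip1, and tumour 3 is low for Cdkn1a and Zmat3.

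A list of 37 other p53 target genes was ranked among the tumours, a reading added after the data were seen, and all 37 passed the filter. Of these, 14 had their highest tumour level in tumour 4 and 14 in tumour 5, against 1, 2, 4 and 2 in tumours 1, 2, 3 and 6. As shares these were 37.8% in tumour 4 and 37.8% in tumour 5, where over all genes the shares were 8.9% in tumour 4 and 11.8% in tumour 5. The lowest level fell in tumour 1 for 18 genes and in tumour 3 for 11, which is 48.6% and 29.7% of the list, where the shares of all genes were 24.5% and 29.6%. Tumour 3 held 10.8% of the highest levels on the list, where it held 26.8% of those of all genes. The share lowest in tumour 3 was therefore at the level of all genes under TMM scaling. With upper-quartile scaling, 13 genes were lowest in tumour 1 and 14 in tumour 3, so the order of these 2 tumours depended on the scaling. With tumours 1 and 6 left out, 15 genes were highest in tumour 4 and 16 in tumour 5, or 40.5% and 43.2% of the list, where the shares of all genes were 18.6% and 23.4%. In the same comparison 17 genes were lowest in tumour 3, or 45.9% of the list against 36.2% of all genes.

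Examples were chosen after their values were seen. Phlda3, an inhibitor of Akt, had 23.2, 80.1, 8.04, 111, 83.4 and 41.7 CPM in tumours 1 to 6, against 278, 132, 152 and 113 CPM in glands 1 to 4. Bax, the pro-apoptotic pore protein, had 24.6, 51.3, 49.0, 104, 62.4 and 34.1 CPM in tumours, against 23.6, 21.8, 20.8 and 17.3 CPM in glands. Bbc3, which encodes the pro-apoptotic protein Puma, had 2.54, 4.01, 0.495, 3.76, 7.11 and 2.84 CPM in tumours, against 12.7, 8.55, 9.08 and 1.59 CPM in glands. Tumour 3 was thus the lowest tumour for Phlda3 and Bbc3 but not for Bax, where tumour 1 was the lowest.

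**Figure D4:**
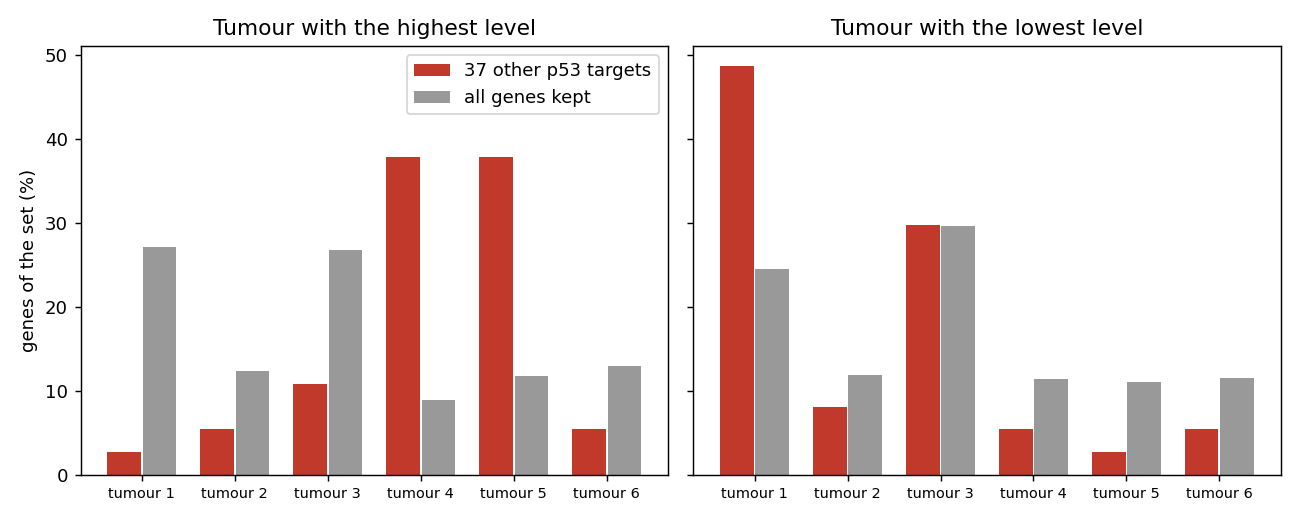
Share of the 37 other p53 target genes, and of all genes kept, whose highest or lowest level among the 6 tumours fell in each tumour, in percent. With TMM scaling, each of tumours 4 and 5 holds 37.8% of the highest levels on the list, and tumour 1 holds 48.6% of the lowest.

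In the test of tumours against glands, 7 of these 37 genes rose, 4 fell and 26 did not pass, where 6.89% of all genes rose and 8.19% fell, and their median log2 fold change was -0.07, against 0.17 over all genes. The members that rose included genes better known for other roles. Perp, a p53 target that is also a desmosome component of epithelia, had a mean of 378 ± 243 CPM in tumours (SD, n = 6) and 7.82 ± 3.25 CPM in glands (SD, n = 4). Its log2 fold change was 5.60 ± 0.65 (SE), with an edgeR adjusted p of 0.00176. Psrc1 and Ckap2, which act on the mitotic spindle, had log2 fold changes of 4.54 and 4.25, and Gtse1, expressed in the G2 and S phases, had 3.27. Bax, Epha2 and Bloc1s2, named here to complete the count, also rose, by 1.38, 2.95 and 1.06. Those that fell were Tigar, a fructose bisphosphatase, at -2.58, Ak1, an adenylate kinase, at -4.27, Rrm2b, a ribonucleotide reductase subunit, at -1.01 and Sesn1, a sestrin, at -1.11. Leaving out 1 library gave 3 to 7 genes that rose, with 3 without gland 1 or gland 3 and 4 without gland 2. It gave 2 to 4 that fell, with 2 without tumour 2, 4 or 5 or gland 1, 2 or 4. Perp, Psrc1, Ckap2 and Tigar passed in every such analysis. In glands 1 to 4, Tigar had 18.5, 11.3, 8.07 and 57.5 CPM and Ak1 had 131, 52.8, 14.7 and 926 CPM. Both had the gland order of the skeletal muscle markers, and the part of muscle was not tested. The other 2 that fell varied less among the glands, Rrm2b from 21.4 to 26.5 CPM and Sesn1 from 46.4 to 55.4 CPM.

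Genes that p53 lowers through p21 and the DREAM complex, mostly mitotic genes, were high. Of 20 such genes, 18 rose and 0 fell, also 0 by DESeq2, limma-voom or an unadjusted p below 0.05, with a median log2 fold change of 3.61, where 6.89% of all genes rose. Without gland 1 only 4 passed. Cdc25c, a phosphatase that triggers mitosis, rose by 5.06 ± 0.88 (SE) with an edgeR adjusted p of 0.00699, and Cdk1, the mitotic kinase, rose by 4.65 ± 0.97 (SE) with an edgeR adjusted p of 0.0130. Birc5 and Cenpf, which act in chromosome segregation, rose by 4.30 and 3.62. All 20 genes lay above every gland in tumours 2, 3, 4 and 5, 19 did in tumour 6 and 5 did in tumour 1. The shares of all genes above every gland were 33.2%, 33.8%, 33.3%, 34.3%, 30.9% and 26.3% in tumours 1 to 6. Tumour 3 had the highest level of 19 of the 20 genes, where it was the highest tumour for 26.8% of all genes. Tumour 1 had the lowest tumour level of all 20 genes, where it was the lowest for 24.5% of all genes. The summed level ran from 86.6 to 1857 CPM in tumours and from 25.4 to 104 CPM in glands.

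Of 16 upstream regulators of p53 and its relatives, 2 rose and 1 fell, where 6.89% of all genes rose and 8.19% fell, so these counts were near the level of all genes. Chek1 and Chek2, the checkpoint kinases, rose by 3.57 ± 0.84 (SE) and 1.61 ± 0.35 (SE), with edgeR adjusted p of 0.0200 and 0.0149, and Hipk2, a kinase that phosphorylates p53, fell by 1.84 on the log2 scale with an edgeR adjusted p of 0.00939. Without gland 1 or gland 2, Chek1 did not pass, with edgeR adjusted p up to 0.0678. Trp63, a p53 relative of basal epithelium named after its values were seen, had 6.44, 75.7, 0.965, 27.3, 105 and 8.0 CPM in tumours 1 to 6, against 3.86 to 13.8 CPM in glands, and its log2 fold change of 2.38 had an edgeR adjusted p of 0.146. Trp63 was lowest in tumour 3 and highest in tumour 5.

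On the Ink4 and Rb axis, 3 of 14 genes rose and 3 fell, where 6.89% of all genes rose and 8.19% fell. Ccnd1, the cyclin that Cdk4 and Cdk6 pair with, rose by 3.65 ± 0.57 (SE) with an edgeR adjusted p of 0.00457, and Cdk4 and Cdk6 rose by 1.81 and 1.37. Cdkn2c, which encodes the inhibitor Ink4c, fell by 3.49 on the log2 scale with an edgeR adjusted p of 0.00432, Rbl2, an Rb relative, fell by 1.42 and Ccnd2 fell by 2.21. Rb1, the retinoblastoma gene on which this axis acts, was named after its values were seen and had 9.94, 50.6, 45.9, 11.3, 23.9 and 86.8 CPM in tumours 1 to 6, against 34.2 to 48.9 CPM in glands, so that tumours 1, 4 and 5 lay below every gland and tumours 2 and 6 above every gland. A further list held 13 genes tied to Cdkn2a or its protein products, its neighbour Mtap among them. Of these, Ezh2, Myc and Npm1 rose by 1.85, 1.35 and 1.77, and Twist1 fell by 2.61. Over all genes 6.89% rose and 8.19% fell. Leaving out 1 library left 0 to 3 genes of this list that rose, with 0 without gland 1 and 1 without tumour 2, 4 or 6 or gland 2, 3 or 4. Between 0 and 2 fell, with 2 without gland 4 and 0 without gland 1, where Twist1 had an edgeR adjusted p of 0.0690. With age as a covariate 0 fell. On the Ink4 and Rb axis the number that rose was 1 without any 1 gland, and the number that fell was 1 without gland 1 or gland 2.

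Atf4 target genes were read because Gdf15 also answers to that stress pathway. Of 13 that passed the filter, 0 rose and 1 fell by edgeR, where 6.89% of all genes rose and 8.19% fell, so 1 lower gene was near the level of all genes. At an unadjusted p below 0.05, 1 was higher, and DESeq2 and limma-voom called 0 higher. The gene that fell was Vldlr, by 2.24 on the log2 scale with an edgeR adjusted p of 0.0118. Without tumour 1 or gland 4, 2 genes fell. Trib3, a pseudokinase of that pathway, had 38.6 CPM in tumour 4, the tumour with the highest Gdf15, against 0.819 to 10.5 CPM in the other libraries. Slc7a11, the cystine transporter, had 938 CPM in tumour 5, the tumour with the highest Pmaip1, against 1.93 to 8.53 CPM in the other tumours and 0.885 to 11.4 CPM in glands. Both were picked after their values were seen, and the rest of the list did not follow them. Of the 13 genes, 2 lay above and 4 below every gland in tumour 4, and 3 lay above and 6 below in tumour 5. As shares these were 15.4% and 30.8% in tumour 4 and 23.1% and 46.2% in tumour 5. Over all genes the shares were 34.3% above and 30.5% below in tumour 4, and 30.9% and 26% in tumour 5. The share below in tumour 4 was thus at the level of all genes. The median log2 ratio to the gland median was -0.37 in tumour 4 and -0.47 in tumour 5.

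For Cdkn1a, Cdkn2a and Trp53, the genes whose pattern across the 6 tumours was most like theirs were found by the root mean square difference of log2 levels centred over the tumours. For Cdkn1a these were Cdkn2b at 0.428, Ccnd2 at 0.438 and Ddit4l at 0.705, out of 9616 genes, while Cdkn1a itself spanned 4.37 on the log2 scale. For Cdkn2a they were Exoc3l4 at 0.817, Gpx2 at 0.891 and Nrg2 at 1.04, out of 15416 genes, with a span of 5.43. For Trp53 they were Slc35g1 at 0.153, Pof1b at 0.158 and S100a11 at 0.182, out of 9616 genes, with a span of 2.43. Cdkn1a and Cdkn2b thus had closely similar profiles over these 6 libraries, which share their TMM scaling.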

How the data were processed

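RNA was measured in 6 tumours and 4 whole glands, from polyA RNA and NEBNext Ultra libraries, per the labels' protocols. The authors deposited whole-number counts per gene symbol, whose totals differ between libraries. Salmon 1.2.0, DESeq and mm9 are listed in the submitters' processing notes, with no role given. Purified epithelium, 3 of the 13 samples, was not analysed here, and the table held 0 columns of other samples. Separate animals are not stated for each library, and p-values then reflect only how these libraries vary. The closest pair, glands 2 and 3, differed by a chi-square of 37.8 per degree of freedom.

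Counts were filtered by filterByExpr, scaled by TMM (factors of 0.422 in tumour 1, 0.580 in gland 4 and 0.889 to 1.41 elsewhere) and tested with edgeR 4.0.16 in R 4.3.3 (quasi-likelihood F test, no covariate), with Benjamini-Hochberg adjustment over 20101 genes. The script was tested on simulated data. DESeq2 1.42.0 and limma 3.58.1 were alternatives. Intervals are 95% from the t quantile of the fit, and the biological coefficient of variation was 0.707. Members and lists were chosen with earlier results of these data known. Named genes are all members, up to 4 called genes per list and direction by smallest p, and the 3 nearest patterns; other genes, such as Fbxw7, Trp63, Rb1, the neighbouring genes and the examples, fall outside this rule. Coordinates come from RefSeq for GRCm38.p6, not from the authors' build.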

Additional observations from a re-analysis of the deposited data

Results flagged for a closer look

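Over 20 groups of libraries tested, 10 genes in each of 2 groups, 3 held a library far from the others, by its gap as a share of the range. The limit used gives about 1 in 20 by chance only for normally distributed values. CPM need not follow that distribution, so 3 is not read as an excess. Cdkn1a was 74.2 CPM in gland 4, against 8.46 to 9.93 CPM in the other glands. Muscle and mitochondrial transcripts were also highest in gland 4, and their part in this value was not tested. Pmaip1 was 194 CPM (193.715) in tumour 5, against 1.64 to 4.80 CPM in the other tumours. Gdf15 was 1.99 CPM in tumour 4, against 0.124 to 0.822 CPM in the other tumours, and the gap was barely past the limit for 6 samples, at 0.626 of the range.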

How the results depend on the processing

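No paired analysis was possible because the tumours and glands share no replicate numbers that link them. Among all genes, DESeq2 called 2657 higher and 2595 lower, age as a covariate gave 908 and 991, and leaving out gland 4 and tumours 1 and 6 gave 2826 lower. Leaving out 1 library gave 430 to 1737 higher and 623 to 1849 lower, the lowest numbers without gland 1.

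Among the checkpoint genes, 2 were higher by DESeq2 and with age (Cdkn2a and Gdf15) and without tumours 1 and 6 (Cdkn2a and Trp53). By limma-voom 0 were higher, where Cdkn2a had a log2 fold change of 4.14 and an adjusted p of 0.0946. None was lower (0) with upper-quartile scaling, limma-voom, no filter, without tumours 1 and 6, or without these and gland 4. Leaving out 1 library gave 0 to 1 in each direction. Over the pathway lists, age gave 21 genes higher, and leaving out 1 library gave 9 to 35 higher and 5 to 10 lower. The direction of Mdm2 turned, at 0.073 with upper-quartile scaling, 0.076 without tumours 1 and 6 and 0.24 without these and gland 4, and leaving out 1 library gave -0.20 to 0.18. Cdkn2b was -0.19 by limma-voom and -0.28 to 0.42 when 1 library was left out. Pmaip1 was -0.42 with age and -0.10 to 3.93 when 1 library was left out, the lowest without tumour 5. The cause of these changes was not tested, except that the last rests on 1 library.

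Of the 6 target members, the number above every gland was 1 in tumours 1 and 6 with salivary, muscle and mitochondrial transcripts removed, 1 in tumour 6 with RLE scaling and 1 in tumour 3 against glands 1 to 3. The number below was 1 in tumour 1 with upper-quartile scaling and 1 in tumour 6 with RLE scaling. For the ranks among tumours, the settings were chosen after seeing the data. Among the 37 other targets, upper-quartile scaling put 4 highest in tumour 1 and 1 in tumour 6. It put 13 lowest in tumour 1 and 14 in tumour 3. With tumours 1 and 6 left out, the lowest level fell in tumour 2 for 10, tumour 3 for 17, tumour 4 for 4 and tumour 5 for 6 genes, by construction more than among 6 tumours.

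The median over all genes shifted by 0.16 on the log2 scale with upper-quartile scaling, by 0.31 with no filter and by -0.10 with limma-voom. Gdf15 had at most 6 counts in a gland, which limits its precision, and it was not kept at a mean of at least 1 CPM. DESeq2 gave no adjusted p for Pmaip1. With 6 tumours and 4 glands and a large spread among tumours, a gene that misses the threshold is not shown to be alike in both.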
